A study of Homo sapiens with 9 samples.

Results

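HRAS and its relatives are small GTPases of the plasma membrane and the proteins that switch them off. The set held 8 named genes: the GTPases HRAS, NRAS, RRAS, RRAS2 and MRAS, and the GTPase-activating proteins RASA1, NF1 and RASAL2. Members were all probe sets that the array annotation assigns to one of these symbols, 25 probe sets in all. Of the 8 genes, 6 had at least 1 probe set assigned to them alone, out of 19775 genes with such a probe set, and 5 of these 6 were bright enough to be tested (HRAS, RRAS, RRAS2, MRAS and RASAL2). The annotation used here lists no probe set for NRAS or RASA1, so both were not analysed here.

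The samples were 3 human breast lines of the MCF-10A series, each hybridised to 3 Affymetrix arrays of 1 colour. MII is the line MCF-10AT1Kcl2, labelled carcinoma in situ, MIII is MCF-10A1h, labelled carcinoma, and MIV is MCF-10A1a, labelled metastatic carcinoma. All 3 lines grew untreated in the same medium, which held horse serum, insulin, cholera toxin, hydroxycortisone and epidermal growth factor, a ligand whose receptor acts upstream of RAS. As background, these lines descend from MCF-10A cells into which an activated HRAS was introduced, which the labels do not mention. Parental cells without it were not among the samples, and a signal for HRAS adds up transcripts of the introduced and the native gene wherever both match the probes. Each stage is represented by 1 line, so stage and line cannot be told apart, and the labels name the arrays biological replicates without saying that they came from separate cultures, so a p-value here reflects array spread that may be technical.

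RAS proteins cycle between a GTP-bound form, which binds RAF kinases, PI3-kinases and exchange factors of RAL, and a GDP-bound form, which does not. Exchange factors such as SOS1 load GTP after growth factor receptors are engaged, and GTPase-activating proteins, among them NF1 and RASAL2, speed up its hydrolysis. The oncogenic mutations of HRAS make the protein insensitive to GTPase-activating proteins, and in breast epithelial cells activated HRAS is a classical transforming gene. RRAS, RRAS2 and MRAS form the R-RAS subfamily, which acts on integrin adhesion and PI3-kinase, and MRAS also joins SHOC2 and the phosphatase PP1 in a complex that activates RAF. These are facts about protein activity, which arrays of RNA do not measure.

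The regions just before the first transcription start of the 4 members whose signals differed between lines are shown here, to display what kind of upstream sequence these genes carry. Each run holds 250 bases, written 5′ to 3′ on the strand of the gene, from the RefSeq annotation of GRCh38.p14. The HRAS run lies at chr11:535577-535826 on the minus strand, the RRAS2 run at chr11:14364507-14364756 on the minus strand, the MRAS run at chr3:138348329-138348578 on the plus strand and the RASAL2 run at chr1:178093854-178094103 on the plus strand. Capitals mark matches, on either strand, to the GC box GGGCGG, the ETS core CCGGAA, the AP-1 site TGANTCA, the E-box CACGTG or the cAMP response element TGACGTCA.
HRAS: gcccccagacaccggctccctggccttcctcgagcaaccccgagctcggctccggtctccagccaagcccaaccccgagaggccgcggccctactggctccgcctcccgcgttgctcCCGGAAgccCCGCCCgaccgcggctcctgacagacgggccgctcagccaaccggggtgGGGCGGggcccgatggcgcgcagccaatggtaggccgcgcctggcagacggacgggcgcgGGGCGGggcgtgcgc
RRAS2: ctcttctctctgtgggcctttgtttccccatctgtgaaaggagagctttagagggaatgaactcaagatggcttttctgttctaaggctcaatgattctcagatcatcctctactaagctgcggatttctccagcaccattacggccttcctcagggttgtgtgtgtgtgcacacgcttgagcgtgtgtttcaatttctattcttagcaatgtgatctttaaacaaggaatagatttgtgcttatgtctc
MRAS: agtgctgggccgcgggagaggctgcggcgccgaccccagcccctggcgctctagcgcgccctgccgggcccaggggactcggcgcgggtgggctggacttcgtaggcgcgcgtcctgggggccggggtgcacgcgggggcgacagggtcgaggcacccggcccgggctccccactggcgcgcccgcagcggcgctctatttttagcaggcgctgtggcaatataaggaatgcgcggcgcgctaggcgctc
RASAL2: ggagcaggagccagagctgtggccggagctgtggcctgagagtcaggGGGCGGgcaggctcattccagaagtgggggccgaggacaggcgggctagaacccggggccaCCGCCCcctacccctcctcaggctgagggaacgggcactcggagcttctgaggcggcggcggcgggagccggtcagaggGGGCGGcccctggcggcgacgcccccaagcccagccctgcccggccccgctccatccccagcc
HRAS held 3 GC boxes and 1 ETS core and RASAL2 held 3 GC boxes, while these runs of MRAS and RRAS2 held no match. MRAS has 3 RefSeq starts, and the next one downstream held 4 GC boxes and 1 ETS core and the last one 2 GC boxes. Among all 35116 RefSeq start regions of this length, 42.6% held a GC box, 14.5% an ETS core, 6.57% an AP-1 site, 6.34% an E-box and 1.65% a cAMP response element. The run of RRAS2 was poor in CG dinucleotides with 4, against 32 in HRAS, 34 in MRAS, 19 in RASAL2 and a median of 11 over all start regions. RRAS2 has 4 RefSeq starts and another of them held 32 CG dinucleotides and 3 GC boxes. The second start of RASAL2 held 2 CG dinucleotides and 1 GC box. The first start alone therefore does not describe MRAS, RRAS2 or RASAL2. The arrays do not tell which start was used, and a match in these letters is no evidence of a bound factor.

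The median signal of an array separated the lines, with 64.7 to 65.2 in MIV, 69 to 71.7 in MII and 72.1 to 74.9 in MIII, although the trimmed means were nearly equal. With all arrays given 1 common median over the tested genes, HRAS in MIV against MIII had a log2 change of 0.17 (limma adjusted p = 0.0143), and the calls of all 5 tested members stayed as they were, while RRAS in MIII against MII, which did not pass, changed sign. One array stood apart in its bioB spike-in controls: MIV replicate 3 averaged 3133 over 6 control probe sets, against 1001 to 1523 on the other 8 arrays. Without this array, the calls of the tested members stayed as they were except that of HRAS in MIV against MIII. Of 48 values of the pathway genes that the naming rule chose, 46 kept their call without it and the 2 of RASGRP1 were no longer tested. The number of exchange factors that passed then went from 2 to 1 both for MIV and MIII and for MIV and MII, and that of the RAP, RAL and RHEB branches from 3 to 5 in MIV against MII. Epithelial markers were present in all lines, with 6 of 8 listed markers measured and none of these under the pooled median signal of 69.3 throughout a line. Their summed signal was 109294 to 114456 in MII, 65747 to 66857.5 in MIII and 108207 to 118334 in MIV. KRT8, KRT18, CDH1 and EPCAM had their lowest mean in MIII. KRT5 did not, with 25794 (MII), 26308.5 (MIII) and 25068.8 (MIV), and KRT14 was lowest in MIV, with 2155, 957 and 137. The 8 fibroblast markers summed to 447.1 to 499.2 in MII, 4525 to 4809 in MIII and 433.3 to 442.4 in MIV. In MIII, DCN, THY1, COL3A1 and LUM made up most of this sum, while COL1A2, PDGFRA and PDGFRB stayed under the pooled median on all MIII arrays. Of 7 leukocyte and endothelial markers 5 were measured, and they summed to at most 453.4 on any array. Among them PECAM1 exceeded the pooled median on all arrays, with means of 174 (MII), 251 (MIII) and 306 (MIV). CD3E exceeded it on all MII arrays and on some arrays of the other lines. PTPRC, VWF and CDH5 stayed under it on all arrays.

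The members were compared between the lines in pairs, with limma fitted to all 12594 tested genes. A gene passed the test at a Benjamini-Hochberg adjusted p under 0.05, and a stricter rule also asked for a change of at least 2-fold. Between MIV and MIII, 3 of 5 tested members rose (RRAS2, RASAL2 and HRAS) and 1 fell (MRAS), where 25.3% of all genes rose and 26.6% fell. Between MIV and MII, 2 members rose (HRAS and RASAL2), where 20% of all genes rose and 22.2% fell, and no member passed in the downward direction. Between MIII and MII, 2 rose (HRAS and MRAS) and 2 fell (RRAS2 and RASAL2), where 22.9% of all genes rose and 24.3% fell. So many genes differ between these lines that 5 members cannot be said to stand out from the rest. The stricter rule was met by MRAS alone, which fell in MIV against MIII and rose in MIII against MII. In these comparisons 12.7% and 11.7% of all genes met this rule. In MIV against MII it was met by none of the 5, also at an unadjusted p under 0.05, and by 8.14% of all genes. The median log2 change of the 5 members was 0.16, 0.10 and -0.03 in these comparisons, and that of all genes was -0.01, -0.03 and -0.02. The comparisons share arrays, so a line that is high or low appears in each comparison it enters.

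**Figure D1:**
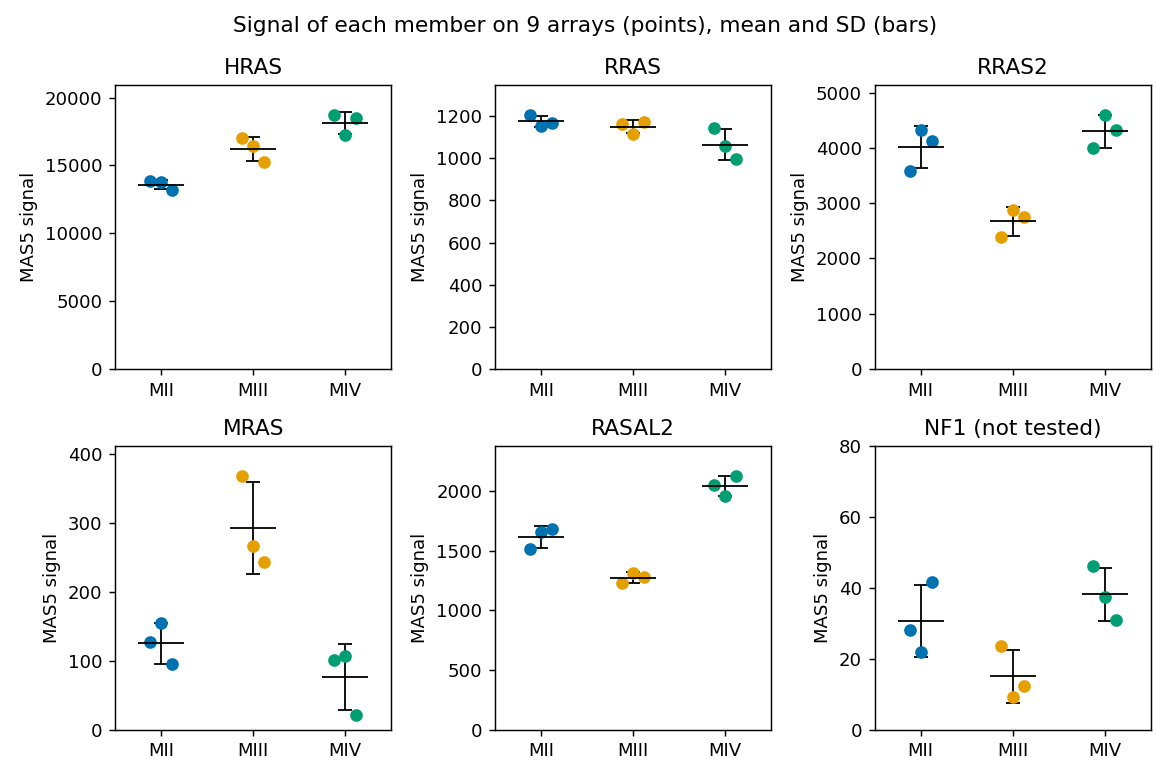
MAS5 signal (vertical axes, linear and starting at 0, 1 panel per gene) of 6 members in lines MII, MIII and MIV. The brightest probe set is shown for the 5 tested members, and for NF1, not tested, the only probe set assigned to it alone. Points are arrays and bars give mean and SD of 3 arrays; HRAS climbs from 13590 in MII to 18136 in MIV, RRAS2 and RASAL2 are lowest in MIII, and MRAS is highest there.

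HRAS, the GTPase whose activated form marks the origin of these lines, was lowest in MII, intermediate in MIII and highest in MIV. Its single probe set gave signals of 13832.5, 13753.5 and 13184 on the MII arrays. On the MIII arrays it gave 17002.7, 16460.3 and 15273.3, and on the MIV arrays 18694.5, 17241.6 and 18472.6. The 3 lines did not overlap, and all arrays were bright. The mean was 13590 ± 354 (MII), 16245 ± 884 (MIII) and 18136 ± 783 (MIV; SD, n = 3). HRAS rose by 33.4% from MII to MIV, a log2 change of 0.42 ± 0.05 (SE, limma adjusted p = 1.68e-05). From MII to MIII it rose by 19.4% (log2 0.26 ± 0.05, limma adjusted p = 0.00082). The difference of MIV from MIII was smaller, 11.7% (log2 0.16 ± 0.05, limma adjusted p = 0.0168). That last call was lost without MIII replicate 3 (limma adjusted p = 0.0885), without MIV replicate 1 (0.0689) and without MIV replicate 3 (0.0532). It was also lost under cyclic loess normalization (log2 0.09, adjusted p = 0.105) and with a variance prior without trend (adjusted p = 0.0704). The rises from MII to both other lines passed under each of the 22 alternatives run for a log2 change. With no second probe set, HRAS has no check within the array.

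RRAS, the founding member of the R-RAS subfamily, did not pass the test in any comparison. Its probe set gave 1204.1, 1154.3 and 1167 in MII, 1162.1, 1115.8 and 1174.4 in MIII and 1141.9, 1056.7 and 996.4 in MIV. The MIV arrays all lay below the MII arrays, and the other pairs of lines overlapped. The 95% interval of the log2 change was -0.30 to 0.01 for MIV and MII, -0.27 to 0.04 for MIV and MIII and -0.18 to 0.12 for MIII and MII (limma adjusted p of 0.132, 0.212 and 0.767). A 2-fold change of RRAS lies outside all 3 intervals, and smaller changes within them cannot be told from none.

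RRAS2, also called TC21, is the subfamily member that can transform cells much as the classical RAS genes do, and it was lowest in MIII. On its brightest probe set the signals were 3588.4, 4325.8 and 4129.6 in MII, 2381, 2882.4 and 2758 in MIII and 3996.6, 4592.2 and 4332.9 in MIV. The MIII arrays lay below all others, and MII and MIV overlapped. RRAS2 was 1.61-fold higher in MIV than in MIII (log2 0.69 ± 0.08, limma adjusted p = 1.09e-05) and 33.3% lower in MIII than in MII (log2 -0.58 ± 0.08, limma adjusted p = 5.82e-05). Between MIV and MII the 95% interval was -0.08 to 0.29 (limma adjusted p = 0.36). Without MIV replicate 3 RRAS2 exceeded MIII by 0.68 in MIV (limma adjusted p = 9.92e-05). Its 3 probe sets gave the same order. A second one had 2354.4, 2595 and 2383.1 in MII, 1396.7, 1671 and 1630.9 in MIII and 2714.9, 2884.2 and 2750.7 in MIV, and the remaining one had means of 2576 ± 141, 2003 ± 189.5 and 2846 ± 203 (SD, n = 3). In the fit over all 29597 tested probe sets, MIV exceeded MIII by 0.83 and 0.51 on these (limma adjusted p of 8.35e-07 and 0.000146), and MIII fell below MII by 0.64 and 0.36 (limma adjusted p of 1.16e-05 and 0.00234). Probe sets of a gene read the same RNA and are not replicates.

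MRAS, the member that partners SHOC2, was dim and was highest in MIII. Its brighter probe set gave 127.1, 154.5 and 95.3 in MII, 368.3, 267.5 and 243.2 in MIII and 101, 107.6 and 20.6 in MIV. The MIII arrays lay above all others, MII and MIV overlapped, and MIV replicate 3 was far below the other 2 MIV arrays and under the pooled median. On the scale of log2 signal plus an offset of 18.3, which understates changes of dim genes, MRAS was 3.67-fold lower in MIV than in MIII (log2 -1.88 ± 0.37, limma adjusted p = 0.000736). Without MIV replicate 3 the log2 change was -1.32 (limma adjusted p = 0.000477). In MIII against MII, MRAS rose 2.16-fold (log2 1.11 ± 0.37, limma adjusted p = 0.0243). This rise did not pass without MII replicate 3 (log2 0.95, limma adjusted p = 0.0872) or without MIII replicate 1 (log2 0.95, adjusted p = 0.0968), nor with an offset of 1 (adjusted p = 0.06), without the trend (0.07) or with averaged probe sets (log2 0.60, adjusted p = 0.24). In MIV against MII the log2 change was -0.76 with a 95% interval of -1.56 to 0.04 (limma adjusted p = 0.12). That difference passed without MIV replicate 2 (log2 -1.06, adjusted p = 0.048) and shrank to -0.21 without MIV replicate 3. The other MRAS probe set lay above the pooled median on 2 of 9 arrays and was not tested, with signals from 6.5 to 96.3. The fibroblast marker sum given above was highest in MIII as well, through DCN, THY1, COL3A1 and LUM. COL1A1 did not follow it, with 243.2 ± 33.2 (MII), 213.4 ± 39.2 (MIII) and 222.5 ± 35.2 (MIV; SD, n = 3). COL1A2, PDGFRA and PDGFRB stayed under the pooled median on all arrays. In MIII, DCN had 2511 ± 119 and THY1 995 ± 29.8, against 75.03 ± 3.8 and 60.8 ± 19.5 in MII and 52.6 ± 32.9 and 48.0 ± 12.7 in MIV (SD, n = 3). COL3A1 and LUM exceeded the pooled median on the MIII arrays alone, so their passing the filter already required a difference, and no count of tested markers is given. The part of these markers in the MRAS difference was not tested.

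The 2 tested genes whose pattern over the 9 arrays was closest to that of MRAS were SCG5 and SERPINF1. Closeness was the root mean square difference of log2 values centred on each gene's mean, 0.29 for SCG5 and 0.30 for SERPINF1. SCG5 had signals of 38.3 ± 6.2 (MII), 109 ± 5.9 (MIII) and 28.8 ± 22.9 (MIV), and SERPINF1 had 66.4 ± 3.3, 203 ± 37.0 and 36.5 ± 32.6 (SD, n = 3). SCG5 exceeded the pooled median on the MIII arrays alone. All of these genes are dim, and arrays of a line share their culture conditions, so this likeness is a description only.

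**Figure D2:**
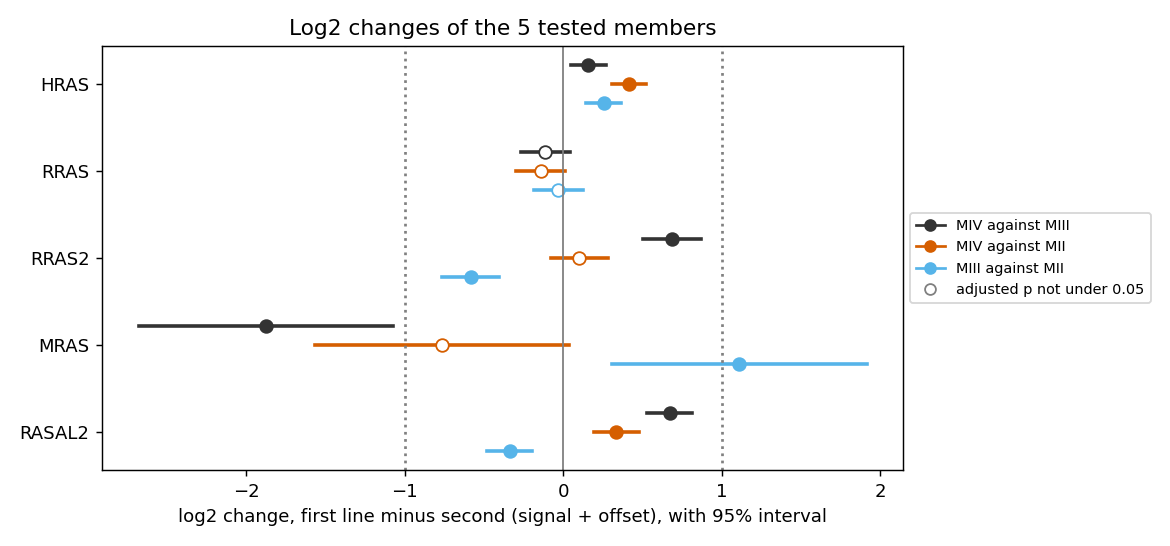
Log2 change of the 5 tested members (horizontal axis, first line minus second, on the scale of signal plus offset) with 95% intervals from limma, coloured by comparison. Filled points passed at an adjusted p under 0.05 and dotted lines mark 2-fold; MRAS alone lies past them, at -1.88 in MIV against MIII and 1.11 in MIII against MII.

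Among the GTPase-activating proteins, RASAL2, which lowers GTP-bound RAS and has been studied in breast cancer both as a suppressor and as a promoter of invasion, was lowest in MIII and highest in MIV. Its brightest probe set gave 1510.4, 1655.3 and 1678.4 in MII, 1228.5, 1315.9 and 1275 in MIII and 2047, 1956.7 and 2123.7 in MIV. The 3 lines did not overlap. RASAL2 was 1.60-fold higher in MIV than in MIII (log2 0.67 ± 0.07, limma adjusted p = 1.19e-06) and 1.26-fold higher in MIV than in MII (log2 0.34 ± 0.07, limma adjusted p = 0.000991). In MIII it was 1.26-fold lower than in MII (log2 -0.34 ± 0.07, limma adjusted p = 0.000765). Without MIV replicate 3 its log2 change was 0.65 over MIII and 0.31 over MII (limma adjusted p of 1.56e-05 and 0.00629).

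The probe sets of RASAL2 did not all give this order. It has 8, of which 5 were tested, and the 3 others stayed under the pooled median on every array. The second brightest gave 598.7, 488.3 and 559.4 in MII, 471.9, 449.5 and 400.3 in MIII and 723.6, 554.4 and 713.9 in MIV. There MIV rose above MIII by 0.57 ± 0.12 in log2 (limma adjusted p = 0.00198), while MIV against MII (0.26, adjusted p = 0.127) and MIII against MII (-0.30, adjusted p = 0.0673) did not pass. The 3 dimmer tested probe sets passed in no comparison, with log2 values of 0.29, -0.02 and 0.19 in MIV against MIII and intervals from -0.39 to 0.77. The mean over all probe sets of the gene gave 0.33 in MIV against MIII (limma adjusted p = 0.0718), 0.21 in MIV over MII (0.268) and -0.12 in MIII over MII (0.526). None of these passed. The RASAL2 call in MIV against MIII therefore rests on its brightest and second brightest probe sets, and its other calls rest on the brightest alone.

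**Figure D3:**
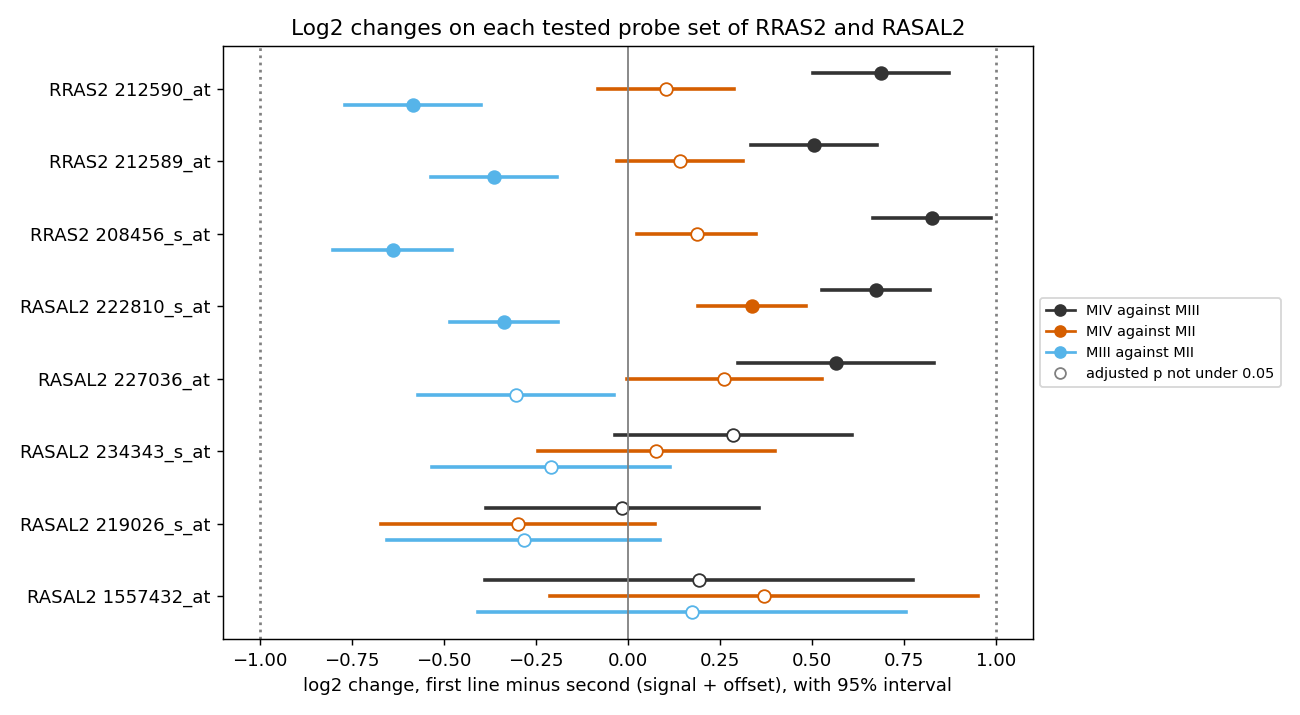
Log2 change (horizontal axis, first line minus second, signal plus offset, with 95% intervals) on each tested probe set of RRAS2 and RASAL2, ordered by brightness within the gene. The 3 RRAS2 probe sets agree in MIV against MIII (0.51 to 0.83) and in MIII against MII, while the 3 dimmer RASAL2 probe sets have wide intervals that span 0.

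NF1, the neurofibromin gene, whose product is the main brake on RAS in many cell types, had 10 probe sets, and only 1 was assigned to it alone. That probe set was dim, with 28.1, 21.9 and 41.7 in MII, 23.5, 9.3 and 12.3 in MIII and 46, 37.3 and 31 in MIV, all under the pooled median, and it was not tested. The other 9 are assigned to NF1 and its pseudogene NF1P9 together, with signals between 20.4 and 1156, so they cannot be credited to NF1. Of these, 8 were tested and none passed in limma in any comparison. The smallest adjusted p was 0.0503, in MIV against MIII, where 3 of 8 had an unadjusted p under 0.05, beside 49.4% of all tested probe sets. That number was 0 for MIV and MII, beside 41.1%, and 1 for MIII and MII, beside 46.5%.

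Over all probe sets that belong to a member alone, 7 of 11 tested passed in MIV against MIII, where 43% of all tested probe sets passed. For MIV and MII 2 of 11 passed, beside 32% of all probe sets, and for MIII and MII 6 of 11, beside 38.4%. RRAS2 and RASAL2 supplied 8 of these 11, so these are not counts of independent genes.

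The genes next to each member on its chromosome were then set beside it, taking the 5 nearest tested genes on each side. Over all genes 25.3% rose and 26.6% fell in MIV against MIII and 20% and 22.2% in MIV against MII. The shares in MIII against MII were 22.9% and 24.3%. MRAS lies on chromosome 3, and in MIII against MII 7 of its 10 neighbours rose, with log2 changes from 0.10 to 0.52 and a median of 0.29, under the 1.11 of MRAS. In MIV against MII 5 of these neighbours rose and 1 fell (median 0.36), while MRAS had -0.76. In MIV against MIII their median was 0.02, and MRAS fell by 1.88. Around RRAS on chromosome 19, 7 of 10 neighbours fell in MIV against MIII (median -0.46) and 7 fell against MII (median -0.55), while RRAS had -0.11 and -0.14 and did not pass. Around HRAS on chromosome 11, 6 neighbours rose and 1 fell in MIV against MIII (median 0.34), but in MIII against MII 2 fell and their median was -0.25, where HRAS rose by 0.26. RRAS2, elsewhere on chromosome 11, had neighbours that went both ways, with 4 up and 2 down in MIV against MIII and 3 up and 3 down in MIII against MII. RASAL2 on chromosome 1 also had neighbours in both directions, 3 up and 2 down in MIV against MIII and 2 up and 4 down in MIII against MII. Copy number was not measured.

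**Figure D4:**
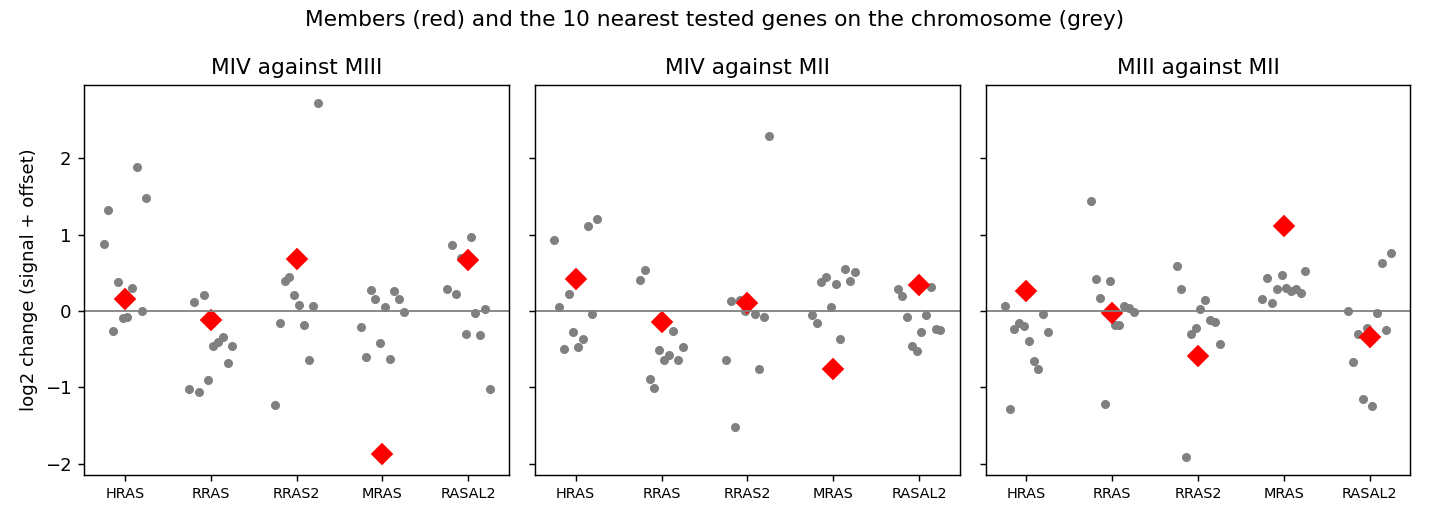
Log2 change (vertical axis, signal plus offset) of 5 members, as red diamonds, and of the 10 nearest tested genes on the chromosome of each, as grey points in chromosome order, with 1 panel per comparison. In MIII against MII the neighbours of MRAS all lie between 0.10 and 0.52, under MRAS itself at 1.11.

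The rest of the pathway was described with 8 lists that together name 114 genes outside the member set, of which 83 were tested. In MIV against MIII 38 of the 83 rose and 16 fell, with a median log2 change of 0.18. Between MIV and MII 17 rose and 17 fell (median 0.05), and between MIII and MII 20 rose and 31 fell (median -0.08). These stand beside shares of all genes of 25.3% up and 26.6% down, 20% and 22.2%, and 22.9% and 24.3%. Of the 83, 2 passed the filter through 1 line only, RASGRP1 through MIV and GEM through MIII. Their places in these counts are no independent support. No test of the lists against other genes was made.

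Upstream of RAS, the exchange factors that load GTP had 4 of 8 members tested. Of these 2 rose in MIV against MIII, beside 25.3% of all genes. SOS2, a partner of the adaptor GRB2, was low in MIII as RRAS2 was, with signals of 944 ± 16.1 (MII), 512 ± 48.8 (MIII) and 986 ± 29.5 (MIV; SD, n = 3). It fell by 0.86 ± 0.09 in MIII against MII (limma adjusted p = 1.41e-06) and rose by 0.93 ± 0.09 in MIV against MIII (adjusted p = 6.34e-07). With averaged probe sets the fall of SOS2 was -0.39 and did not pass (adjusted p = 0.0698). RASGRP1, an exchange factor controlled by diacylglycerol, had 107 ± 10.0 in MIV, against 14.9 ± 16.6 in MII and 7.4 ± 3.4 in MIII. It was tested only because its MIV arrays passed the filter, and it left the test when any MIV array was left out. Its place among the 2 that rose is therefore no independent support, and the other of them was SOS2. SOS1 was lower in MIV than in MII (-0.49 ± 0.14, limma adjusted p = 0.0114), but -0.05 when its probe sets were averaged.

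Of the receptor adaptors, 10 of 12 were tested, with 2 up and 3 down in MIV against MIII, beside 25.3% and 26.6% of all genes. These 5 adaptors became 2 on suffix-free probe sets and 3 with the filter at the pooled 75th percentile. These settings tested 9673 and 8318 genes in place of 12594. A lower count can therefore come from genes no longer tested, as GAB1 was not with that filter. The docking protein GAB1 rose by 1.09 ± 0.16 in MIV against MIII (limma adjusted p = 4.87e-05) and fell by 0.81 ± 0.16 in MIII against MII (adjusted p = 0.000736). The insulin receptor substrate IRS2 fell by 1.07 ± 0.06 in MIV against MIII (adjusted p = 4.19e-09) and by 0.39 ± 0.06 in MIV against MII (adjusted p = 0.000146). IRS1 fell by 0.78 ± 0.17 in MIV against MII (adjusted p = 0.00192). In MIII against MII 5 adaptors rose and 2 fell, beside 22.9% and 24.3% of all genes. Without MII replicate 2 or MIII replicate 2, 4 in all passed. The largest rise was that of DOK1 (0.69 ± 0.26, limma adjusted p = 0.0442). IRS2 rose by 0.68 ± 0.06 in the same comparison (limma adjusted p = 5.02e-07). Its mean signals were 2252 (MII), 3611 (MIII) and 1715 (MIV), so IRS2 was highest in MIII. DOK1 did not pass without any one of the MIII arrays, MII replicate 2 or 3, or MIV replicate 2, with values from 0.44 to 0.75.

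The other GTPase-activating proteins and negative regulators had 8 of 11 members tested. Of these 3 were up and 3 down in MIV against MIII, beside 25.3% and 26.6% of all genes. RASAL1, a calcium-dependent relative of RASAL2, had signals of 708 ± 72.4 (MII), 155 ± 12.6 (MIII) and 542 ± 40.3 (MIV; SD, n = 3). It fell by 2.07 ± 0.12 in MIII against MII (limma adjusted p = 4.69e-09) and rose by 1.70 ± 0.12 in MIV against MIII (adjusted p = 3.31e-08), so RASAL1 and RASAL2 were both lowest in MIII. RASA3, which acts on RAP1 as well as RAS, had 187 ± 37.1 (MII), 267 ± 19.9 (MIII) and 77.1 ± 13.0 (MIV), and fell by 1.59 ± 0.19 in MIV against MIII (adjusted p = 8.72e-06) and by 1.10 ± 0.19 against MII (adjusted p = 0.000379). With averaged probe sets the fall against MII was -0.56 and did not pass (adjusted p = 0.112). SPRED2, which brings NF1 to the membrane, rose by 0.64 ± 0.06 in MIV against MII (adjusted p = 1.62e-06), but by 0.18 with averaged probe sets (adjusted p = 0.314).

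HRAS reaches the membrane through farnesylation and reversible palmitoylation. All 13 listed genes of RAS lipid processing and membrane traffic were tested. Of these 7 rose and 1 fell in MIV against MIII (median 0.27), beside 25.3% and 26.6% of all genes. In MIII against MII 1 rose and 6 fell (median -0.07), beside 22.9% and 24.3% of all genes. ABHD17C, a depalmitoylase, had 2362 ± 91.0 (MII), 890 ± 45.4 (MIII) and 2199 ± 164 (MIV; SD, n = 3). It fell by 1.39 ± 0.07 in MIII against MII (limma adjusted p = 1.62e-09) and rose by 1.29 ± 0.07 in MIV against MIII (adjusted p = 3.38e-09). FNTB, the catalytic subunit of farnesyltransferase, rose by 1.08 ± 0.16 in MIV against MIII (adjusted p = 5.05e-05) and by 0.64 ± 0.16 against MII (adjusted p = 0.00454). ZDHHC9, a palmitoyltransferase that acts on HRAS, fell by 0.52 ± 0.11 in MIII against MII on its brightest probe set (adjusted p = 0.000986), but its suffix-free probe set gave 0.05. On suffix-free probe sets of the list 4 genes passed in MIV against MIII and 3 in MIII against MII, and 4 in the latter with averaged probe sets or without MIII replicate 1. The epithelial marker sum was also lowest and the fibroblast marker sum highest in MIII, though not every marker followed its sum. The part of these markers in the values of this list was not tested.

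Downstream, the RAF, MEK and ERK kinases with their phosphatase complex had 11 of 15 members tested. Of these 6 were up and 2 down in MIV against MIII, beside 25.3% and 26.6% of all genes. SHOC2, the scaffold that MRAS binds, had 2098 ± 55.3 (MII), 1456 ± 68.3 (MIII) and 2583 ± 212 (MIV; SD, n = 3), so it was lowest in the line where MRAS was highest. SHOC2 fell by 0.52 ± 0.07 in MIII against MII (limma adjusted p = 2.28e-05) and rose by 0.82 ± 0.07 in MIV against MIII (adjusted p = 2.45e-07). PPP1CB, a PP1 subunit of the same complex, rose by 0.99 ± 0.09 in MIV against MIII (adjusted p = 8.38e-07) and by 0.67 ± 0.09 against MII (adjusted p = 5.89e-05), the latter only 0.03 with averaged probe sets. MAP2K1, the kinase MEK1, fell by 0.66 ± 0.05 in MIII against MII (adjusted p = 2.28e-07). The RAF inhibitor PEBP1 rose by 0.34 ± 0.05 in MIV against MII (adjusted p = 4.1e-05).

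The PI3-kinases, RAL exchange factors and other effectors had 15 of 21 members tested. Of these 7 were up and 4 down in MIV against MIII, beside 25.3% and 26.6% of all genes. These 11 became 7 on suffix-free probe sets, where 9673 genes were tested in all. PIK3R1, the regulatory subunit of PI3-kinase, had 890 ± 120 (MII), 2803 ± 205 (MIII) and 571 ± 28.0 (MIV; SD, n = 3). It rose by 1.64 ± 0.10 in MIII against MII (limma adjusted p = 7.54e-09) and fell by 2.26 ± 0.10 in MIV against MIII (adjusted p = 2.56e-10). MRAS too was highest in MIII. RGL1, a RAL exchange factor, fell by 1.28 ± 0.19 in MIV against MIII (adjusted p = 7.08e-05). RASSF5, an effector that lacks enzyme activity, fell by 1.62 ± 0.17 in MIII against MII (adjusted p = 3.08e-06) and by 0.72 ± 0.17 in MIV against MII (adjusted p = 0.00425). The RAB5 exchange factor RIN2 rose by 1.65 ± 0.10 in MIV against MII (adjusted p = 1.45e-08).

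All 6 tested scaffolds of 8 listed rose in MIV against MIII, beside 25.3% of all genes, with a median log2 change of 0.31. In MIII against MII 5 of 6 fell, beside 24.3% of all genes, with a median of -0.46. On suffix-free probe sets, with 9673 genes tested in all, 3 scaffolds passed in each of these comparisons. In MIV against MII 1 rose and 3 fell, beside 20% and 22.2% of all genes, with a median of -0.16. There 2 passed on suffix-free probe sets. LGALS1, a galectin that clusters GTP-bound HRAS at the membrane, had 21832 ± 815 in MII and 31430 ± 1715 in MIV (SD, n = 3) and rose by 0.52 ± 0.05 (limma adjusted p = 2.36e-06). CNKSR1, a scaffold of RAF signalling, fell by 1.01 ± 0.14 in MIII against MII (adjusted p = 4.75e-05) and rose by 0.58 ± 0.14 in MIV against MIII (adjusted p = 0.00373). In MIV against MII its log2 change was -0.43 ± 0.14 (adjusted p = 0.0262). The same marker sums stand beside the scaffold values, and their part there was not tested. LGALS3 fell by 0.62 ± 0.07 in MIII against MII (adjusted p = 5.81e-06), and the polarity protein SCRIB rose by 0.33 ± 0.07 in MIV against MIII (adjusted p = 0.00176).

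Among 26 genes of the RAP, RAL, RHEB and other branches of the RAS superfamily, 16 were tested. Of these 5 were up and 3 down in MIV against MIII, beside 25.3% and 26.6% of all genes. These 8 became 4 with averaged probe sets. RIT1, a close relative of RAS without a lipid anchor, rose by 0.87 ± 0.10 in MIV against MIII (limma adjusted p = 5.06e-06), but by 0.22 with averaged probe sets (adjusted p = 0.153). GEM, a GTPase that inhibits calcium channels, had 54.6 ± 13.6 (MII), 154 ± 22.6 (MIII) and 29.8 ± 28.3 (MIV; SD, n = 3). It exceeded the pooled median on the MIII arrays alone, so it was tested only through the line where it was high, and its place among the 3 that fell is no independent support. RAP1B, which acts on integrins and junctions, rose by 0.63 ± 0.08 in MIII against MII (adjusted p = 1.6e-05). RAP2B rose by 0.65 ± 0.08 in MIV against MII (adjusted p = 1.61e-05), and NKIRAS1, an inhibitor of NF-kB, fell by 0.43 ± 0.08 (adjusted p = 0.00101).

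**Figure D5:**
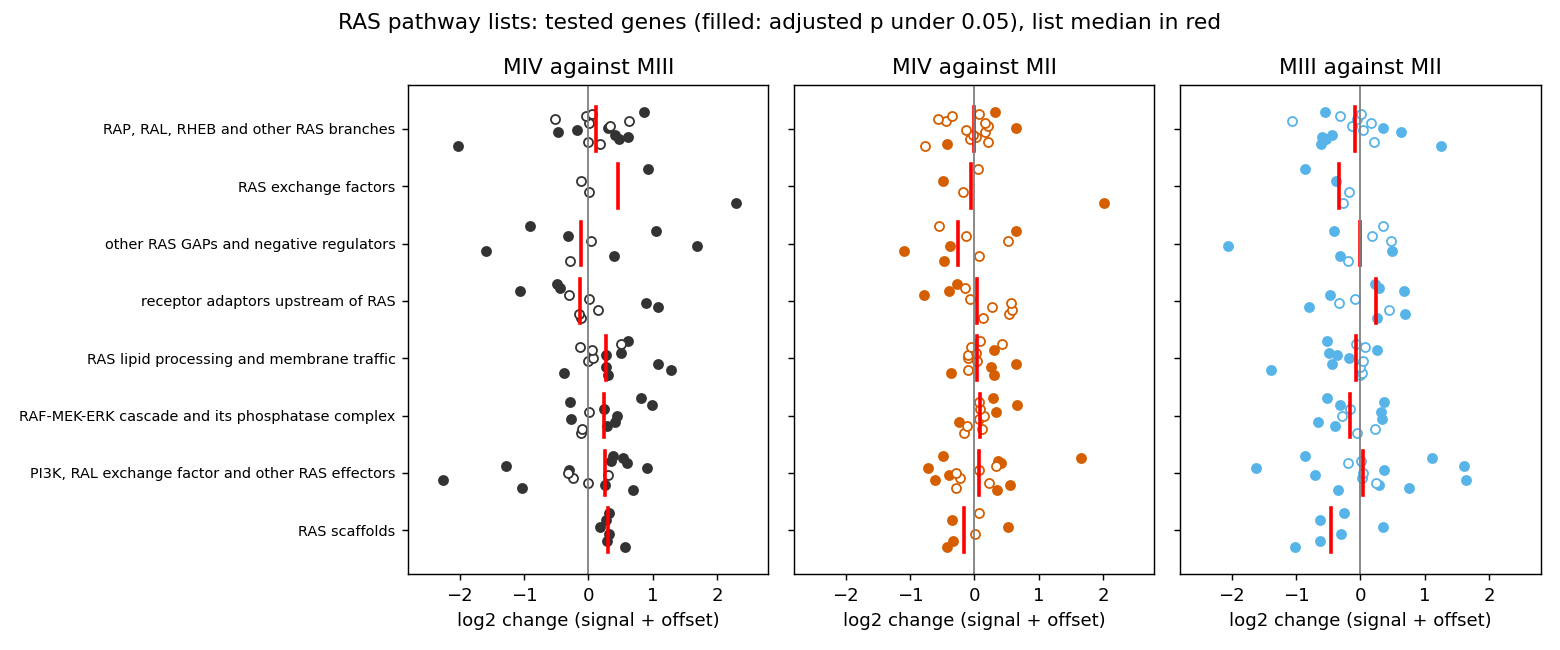
Log2 change (horizontal axes, signal plus offset) of the tested genes of 8 RAS pathway lists, with 1 panel per comparison. Filled points passed at an adjusted p under 0.05 and red bars are list medians; the 6 scaffolds all lie above 0 in MIV against MIII, with a median of 0.31.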

How the data were processed

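RNA of 3 lines was hybridised to 9 arrays. The table deposited by the authors gives an intensity for every probe set, a linear MAS5 signal according to the submitters' processing notes; which MAS5 version ran and the detection calls are not given in the sources used here. After the top and bottom tails were trimmed, 96% of values averaged 500.1 on each array, which were therefore already scaled and were left as they are. The table held 54675 probe sets, 62 of them controls; the annotation names 1 gene for 41091, several for 1801 and none for 11721.

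Values were taken as log2(signal + offset), with the pooled 25th percentile, 18.3, as offset. A gene was represented by its brightest probe set and tested if 3 of 9 arrays exceeded the pooled median of 69.3, which left 12594 genes; 29597 probe sets passed the same filter. A group-means model over all arrays was fitted with limma 3.58.1 under R 4.3.3 (variance trend on intensity, 6 degrees of freedom left), and Benjamini-Hochberg adjustment was made within each comparison over all features tested. The exact two-sided permutation test cannot go below p = 0.1 with 3 arrays against 3. The fit was tested on simulated data. Named were all members and, per list and comparison, up to 2 passing genes with the largest change, and, for a member past 2-fold, the 2 genes of most similar pattern. Members and lists were chosen with earlier results of these data known, and the start regions printed were chosen after the values were seen. Alternatives were other offsets, normalizations, filters, variance priors, probe set rules and thresholds, array weights, a replicate block, only the lines compared, and each array left out.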

Additional observations from a re-analysis of the deposited data

How the results depend on the processing

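Of 327 recomputed log2 changes of members, 309 kept their direction and side of the threshold, 15 no longer passed, 2 newly passed and 1 reversed: RRAS in MIII against MII was 0.0048 with all arrays given 1 common median over tested genes. The number of members that passed in MIV against MII fell from 2 to 1 with averaged or with suffix-free probe sets, and in MIII against MII from 4 to 2 with averaged probe sets. The number past 2-fold in MIII against MII fell from 1 to 0 with an offset of 1 or the pooled median as offset, the filter at the pooled 75th percentile, no trend, averaged probe sets or an adjusted p under 0.01, and was 0 to 1 with 1 array left out, as it was in MIV against MII. In MIV against MIII it was 0 with that filter, which leaves MRAS untested, and 3 at 1.5-fold. Over all genes the number past 2-fold in MIV against MIII, MIV against MII and MIII against MII was 1604, 1025 and 1476, against 893, 535 and 810 with that filter and 3241, 2137 and 2854 at 1.5-fold, and 681 in MIV against MII with an offset of the pooled median. Same-numbered arrays had correlations of deviations between -0.04 and 0.04, and 2 of 9 arrays correlated best with their own number, so the numbers do not pair them; with the replicate block 4, 3 and 4 members passed in place of 4, 2 and 4 (MRAS in MIV against MII, limma adjusted p = 0.0487). Of 528 list counts, 37 fell and 1 rose by over 1.5 times. Fewer genes were tested on suffix-free probe sets (9673), with that filter (8318) or with averaged probe sets (11485), so a count can fall through untested genes. Of 1023 values of named list genes, 44 no longer passed and 1 reversed, ZDHHC9 in MIII against MII with 0.048 on its suffix-free probe set; DOK1, RASA3, SOS1 and GEM in that comparison and CNKSR1 in MIV against MII lost their calls when single arrays were left out. The number of arrays limits the precision: in MIV against MIII the standard errors had a median of 0.11.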
